A study of Mus musculus with 13 samples.

Results

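The subject is the set of 707 genomic regions whose chromatin was at least 2 times more accessible in both groups of lineage-restricted haematopoietic stem cells (HSCs) than in multilineage HSCs of the mouse. The regions were chosen by measured values. Counts were divided by the library total and scaled to 1000000 (CPM), and a region was taken when its mean CPM in PLT-HSC and its mean CPM in PEM-HSC each reached 2 times the mean CPM in MUL-HSC. Only autosomal regions with a mean of at least 10 counts over the 13 libraries could enter, 48540 of the 115295 regions in the table, and these are called eligible here. The 707 regions are 1.46% of them. The opposite pattern, with both restricted groups at least 2 times below MUL-HSC, was met by 457 eligible regions. The ratios to MUL-HSC are therefore given as a description of the choice and are not tested.

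The libraries are bulk Omni-ATAC-seq of sorted bone marrow cells of C57BL/6 mice, gated as CD45.2+, CD150+, CD48-, Flt3- LSK cells that were also negative for Gata1. Each recipient had been given a single Vwf+ HSC, and its reconstitution was followed for 16 weeks, with no age stated in the labels. MUL-HSC (n = 4) came from recipients with multilineage reconstitution, PEM-HSC (n = 6) from PEM-restricted recipients, in the terms of this field those restoring platelets, erythroid and myeloid cells, and PLT-HSC (n = 3) from P-restricted recipients, which restore platelets. Each library was made from 500 donor-derived cells. All groups share the Vwf+ origin of the donor cell and the Gata1-negative gate, and the HSCs of one recipient descend from a single cell. The labels do not say whether libraries of a group came from separate recipients, so the spread between libraries may be technical, or may be that of very few clones.

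HSCs sit at the top of the blood hierarchy, and those that express Vwf, the gene of von Willebrand factor, are known for a bias towards platelets. ATAC-seq uses a transposase that cuts DNA where nucleosomes are loose or absent, so the counts of a region follow how open it is in the sorted cells. Weak regions away from gene starts are often enhancers, elements that regulate genes at a distance and differ more between cell states than promoters do. In a bulk library, a region open in more of the cells and a region more open in each cell cannot be told apart.

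Library totals ranged from 1276962 to 3851165 counts. Fewer than 2000000 were held by 2 MUL-HSC libraries (replicates 1 and 2) and 3 PEM-HSC libraries (replicates 2, 3 and 6). In the 707 regions 1 library, MUL-HSC replicate 3, lay above the rest of its group, and the counts, shares and median ratios that it moves most are also given without it, some of these added after the data were seen. No library of a restricted group lay within the range of the MUL-HSC libraries in the share of counts that fell in the 707 regions, an order of libraries that the choice of regions favours.

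The 707 regions took 0.134%, 0.143%, 0.343% and 0.223% of all counts in MUL-HSC replicates 1 to 4. In PEM-HSC replicates 1 to 6 they took 0.557%, 0.684%, 0.405%, 0.464%, 0.715% and 0.509%. In PLT-HSC replicates 1 to 3 they took 0.717%, 0.872% and 0.565%. The mean share of the MUL-HSC libraries was 0.211% ± 0.0967 (SD, n = 4), that of PEM-HSC 0.556% ± 0.123 (SD, n = 6) and that of PLT-HSC 0.718% ± 0.154 (SD, n = 3). Without replicate 3 the MUL-HSC mean was 0.167% ± 0.0492 (SD, n = 3). PEM-HSC and PLT-HSC overlapped, since PEM-HSC replicates 2 and 5 lay above PLT-HSC replicate 3. The highest MUL-HSC library, replicate 3, and the lowest restricted library, PEM-HSC replicate 3, lay close to each other, with exact binomial 95% intervals of 0.335% to 0.351% and 0.396% to 0.414%, which cover counting error only. Region by region, MUL-HSC replicate 3 was above PEM-HSC replicate 3 in 291 of the 707 regions (41.2%), against 53.1% of eligible regions.

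**Figure D1:**
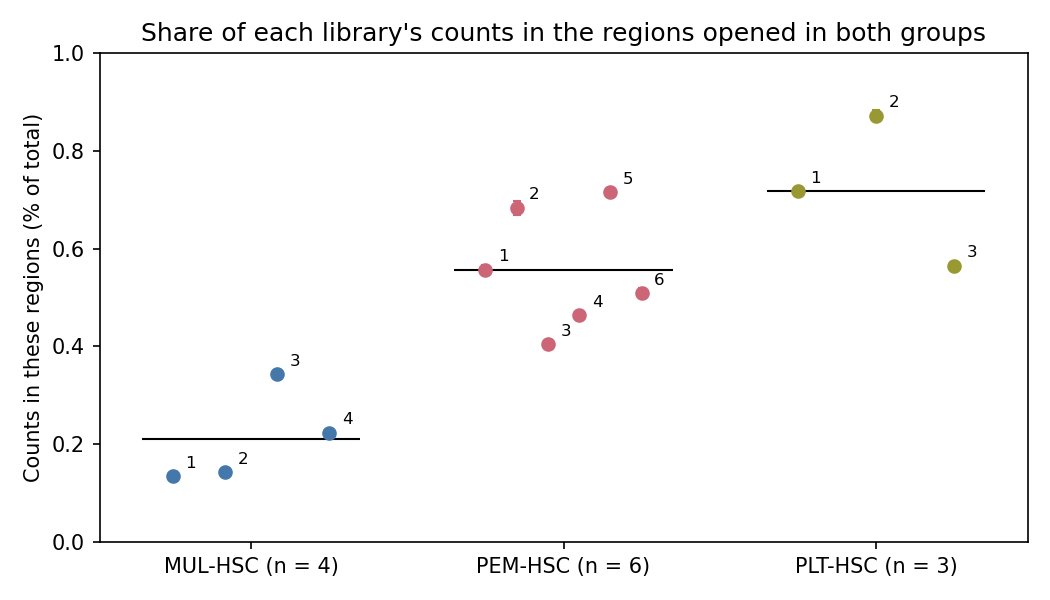
Share of each library's counts (y axis, % of the library total) that fell in the 707 regions, by group. Points are libraries with their replicate number, thin bars exact 95% binomial intervals (mostly smaller than the point) and lines group means; the MUL-HSC libraries sit between 0.134% and 0.343% and the other 9 libraries between 0.405% and 0.872%, an order that the choice of regions favours.

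Libraries within a group were not alike in these regions. The median CPM over the 707 regions was 1.16, 1.53, 4.11 and 2.83 in MUL-HSC replicates 1 to 4, whereas the median over all eligible regions was 10.4, 10.7, 10.5 and 10.6 in the same libraries. MUL-HSC replicate 3 was the highest of the MUL-HSC libraries in 468 of the 707 regions (66.2%) and in 25.9% of eligible regions. It was thus the multilineage library nearest to the restricted groups here. MUL-HSC replicates 1 and 2 had no count in 111 and 139 of the 707 regions (against 0.389% and 0.558% of eligible regions). Replicates 3 and 4 had none in 13 and 21 (against 0.0618% and 0.0742%), while each restricted library lacked counts in at most 8. The choice of regions favours this order, since it asks for low MUL-HSC means. PEM-HSC replicate 2, with the smallest total, lacked counts in 7. Of the PEM-HSC libraries, replicate 5 was the highest in 271 regions (38.3%, against 15.2% of eligible regions) and replicate 2 in 216 (30.6%, against 19.7%), while replicates 3 and 4 were highest in 40 and 38. Of the PLT-HSC libraries, replicate 2 was the highest in 414 regions (58.6%, against 32.8% of eligible regions) and replicate 3 in 88 (12.4%, against 33.6%).

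The regions were weak sites in every group. Their mean CPM had a median of 2.48 (MUL-HSC), 6.54 (PEM-HSC) and 8.46 (PLT-HSC), where eligible regions had medians of 10.4, 10 and 10.4. Even in the groups where they were most open, the typical member thus stayed below the median eligible region. The mean count per library had a median of 14.8 and reached 89.5 at most, and 13 of the 707 regions had a mean of at least 50 counts, against 13305 of 48540 eligible regions (27.4%). A mean from 10 to under 15 counts was found in 359 members (50.8%), against 24.8% of eligible regions. The share of eligible regions that met the rule was 2.98% in that class and 0.0977% at 50 counts or more. The rule itself asks for a low MUL-HSC mean, and how far it also favours weak regions was not tested. The 4 MUL-HSC libraries together held a median of 21 counts per member.

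The ratio to MUL-HSC had a median of 3.27 for PLT-HSC (quartiles 2.61 and 4.38) and 2.51 for PEM-HSC (quartiles 2.22 and 3.05). Both ratios reached 3 in 182 regions and 4 in 85. Without MUL-HSC replicate 3 the medians were 4.09 and 3.25. Leaving out another multilineage library (1, 2 or 4) gave 2.94, 3.00 and 3.37 for PLT-HSC, and 2.29, 2.32 and 2.67 for PEM-HSC. The PEM-HSC ratio was the limiting one: 1582 eligible regions reached 2 times MUL-HSC in PLT-HSC and 826 in PEM-HSC, so the 707 are 44.7% of the first and 85.6% of the second. The members nearest to the threshold were chr6:24577558-24578090 (ratios 2.04 for PLT-HSC and 2.0 for PEM-HSC), chr17:34777694-34778245 (3.29 and 2.0) and chr4:22227352-22228529 (3.01 and 2.0). The eligible regions just outside were chr16:34490589-34491397 (3.21 and 2.0), chr3:68568965-68569564 (2.05 and 2.0) and chr15:55027876-55028487 (3.38 and 2.0), with smaller ratios of 1.999, 1.996 and 1.996 before rounding. Without MUL-HSC replicate 3 the last of these had ratios of 6.19 for PLT-HSC and 3.65 for PEM-HSC. In the same setting chr3:68568965-68569564 had 2.52 and 2.46, so it passed the threshold as well. The region chr16:34490589-34491397 had 2.81 and 1.75 and stayed outside. No gap separates members from the regions around them.

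**Figure D2:**
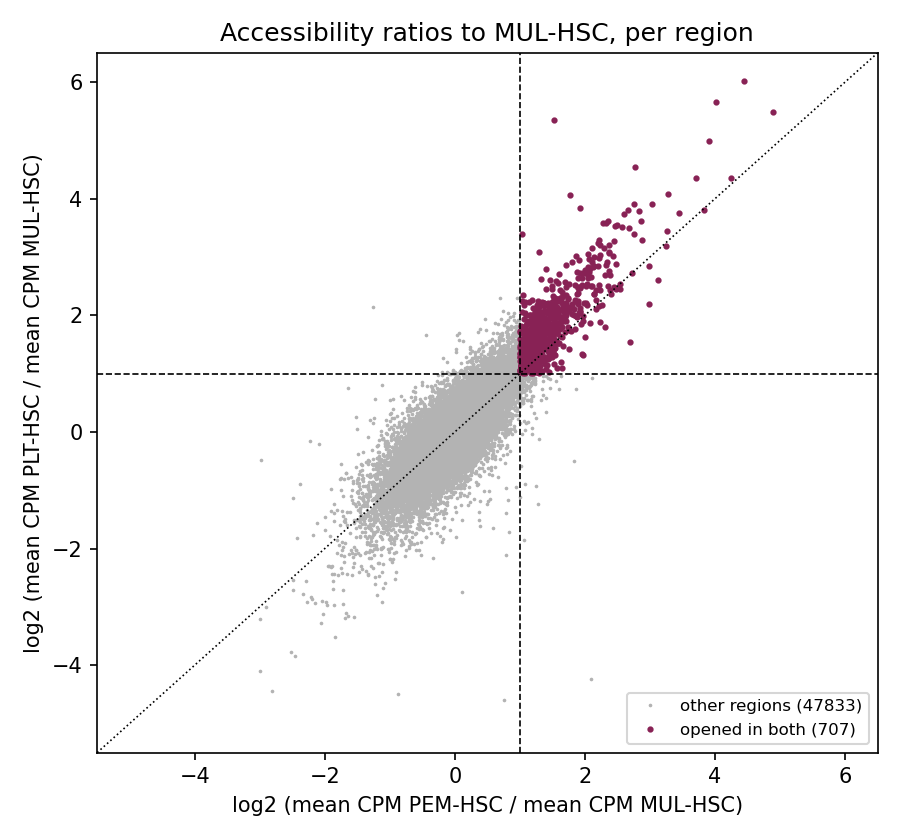
Log2 ratio of mean CPM to MUL-HSC for PEM-HSC (x axis) and PLT-HSC (y axis); each point is 1 of the 48540 eligible regions, dark red where both ratios reach 2 (dashed lines) and grey elsewhere, with the line of equal ratios dotted. The 707 dark red regions are the edge of a continuous cloud and lie mostly above the dotted line; 3 grey regions fall outside the axes.

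All 9 restricted libraries lay above all 4 MUL-HSC libraries in 158 of the 707 regions (22.3%), against 0.915% of eligible regions. The choice of regions used this contrast, so the share is only a description. All 3 PLT-HSC libraries lay above all MUL-HSC libraries in 476 regions (67.3%, against 6.83% of eligible regions). All 6 PEM-HSC libraries did so in 175 (24.8%, against 1.58%). With MUL-HSC replicate 3 left out, these counts were 359 for the 9 libraries together (against 2.66% of eligible regions). They were 609 for PLT-HSC (against 11.2%) and 383 for PEM-HSC (against 3.88%). Every PLT-HSC library exceeded the MUL-HSC mean in 666 regions and every PEM-HSC library in 503. The choice of regions favours both counts, and no share of eligible regions is given for them. Single restricted libraries were above all 4 MUL-HSC libraries in 366 regions (PEM-HSC replicate 3) to 672 regions (PLT-HSC replicate 2). The same libraries were so in 23.1% and 23.6% of eligible regions.

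In the fit across all 59408 regions that passed the filter on low counts (edgeR quasi-likelihood test, Benjamini-Hochberg adjustment), 706 of the 707 regions were tested. Among them 278 were called higher in PLT-HSC than in MUL-HSC, where 1.13% of all tested regions were, and 88 were called higher in PEM-HSC, where 0.242% were. The calls coincided in 80 regions (11.3%, against 0.194% of all tested regions), and 420 of the 706 were called in neither comparison. Both comparisons share the MUL-HSC libraries and both were used in the choice, so nothing is read from these counts beyond how many members are resolved one at a time. Single libraries weighed on them. The 278 calls for PLT-HSC fell to 118, 141 and 126 when the multilineage libraries 1, 2 and 4 were left out one at a time, and to 105 and 116 when PLT-HSC library 1 or 2 was. The 88 calls for PEM-HSC became 13, 14, 233 and 8 on leaving out the multilineage libraries 1 to 4 in turn. They were 36, 41 and 28 on leaving out PEM-HSC library 1, 2 or 5. Calls over all tested regions, in either direction, moved as well. For PLT-HSC against MUL-HSC they were 1431 of 59408 with all libraries. Without MUL-HSC replicate 1 they were 559 of 59896, and without PLT-HSC replicate 1 350 of 62624. For PEM-HSC they were 494 of 59408, and 1215 of 60251 and 61 of 56917 without MUL-HSC replicate 3 or 4. Leaving out the 5 libraries under 2000000 counts left 48 calls for PLT-HSC and 0 for PEM-HSC (335 at an unadjusted p under 0.05; edgeR), with MUL-HSC replicates 3 and 4 as the remaining multilineage libraries. In that setting 275 and 13 of 68564 tested regions were called in either direction. No share over all regions is given for the 335. With all libraries, DESeq2 gave 266 and 102.

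The choice did not compare the restricted groups with each other, but it used both of their means, so values over the members as a set are a description here. No member was called different between PLT-HSC and PEM-HSC (0 of 706, edgeR quasi-likelihood test, smallest adjusted p = 0.519), where 0.00168% of all tested regions were. DESeq2 called 0 as well, with 51 higher and 1 lower in PLT-HSC at an unadjusted p under 0.05. At an unadjusted p under 0.05, 73 of the 706 passed in edgeR (10.3%), against 2739 of 59408 tested regions (4.61%), and all 73 were higher in PLT-HSC. Of all tested regions 1455 (2.45%) passed as higher and 1284 (2.16%) as lower in PLT-HSC. The median log2 fold change of PLT-HSC over PEM-HSC was 0.31 over the 706 regions and -3.92e-05 over all tested regions, and mean CPM was higher in PLT-HSC in 609 of the 707 (86.1%), against 51.1% of eligible regions. The median was 0.15 when PLT-HSC replicate 2 was left out and 0.45 when replicate 3 was, over the same members, which were chosen with all libraries. PLT-HSC also reached the threshold in more eligible regions than PEM-HSC did, and the part of this in the difference was not tested.

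The members with the smallest p between the restricted groups are given library by library. They are extremes and not typical members, for which the median log2 fold change was 0.31. At chr5:91129095-91129689, PLT-HSC replicates 1 to 3 had 13.3, 10.9 and 5.76 CPM. The PEM-HSC libraries there ranged from 1.55 to 6.26 CPM with a median of 2.46, and the MUL-HSC libraries had 0.579, 0.00, 2.74 and 1.41 CPM. The log2 fold change of PLT-HSC over PEM-HSC was 1.89 ± 0.39 (SE; adjusted p = 0.519, edgeR), and PEM-HSC replicate 2 overlapped PLT-HSC. Without PLT-HSC replicate 3 the region was called (adjusted p = 0.0481, edgeR), and over the other fits the adjusted p ranged from 0.121 to 1.0. At chr7:152384119-152384645 the PLT-HSC libraries had 10.6, 12.6 and 8.18 CPM against 3.12 to 7.05 CPM in PEM-HSC (median 3.53), with no overlap (log2 fold change 1.32 ± 0.29, adjusted p = 0.519, edgeR). At chr7:130251625-130252345 they had 15.4, 13 and 7.88 CPM against 3.89 to 6.13 CPM in PEM-HSC (median 5.12), again without overlap (1.26 ± 0.29, adjusted p = 0.564, edgeR). In the other direction the smallest p belonged to chr5:107926502-107927021, where PEM-HSC ranged from 3.10 to 18.8 CPM (median 10.5) and PLT-HSC had 0.907, 7.15 and 5.15 CPM (log2 fold change -1.18 ± 0.62, adjusted p = 1.0, edgeR). The next, chr5:101952602-101953377 and chr1:58510960-58511565, had log2 fold changes of -0.60 ± 0.40 and -0.40 ± 0.26, and in all of these the groups overlapped.

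In full are given 10 members, those for which the larger of the p-values against MUL-HSC was smallest, so that they are the best resolved by construction. In each of them the MUL-HSC and restricted libraries did not overlap. The most accessible of them was chr17:50207603-50208387 (784 bp), with 10.4, 10.7, 23.8 and 13.8 CPM in MUL-HSC replicates 1 to 4. PEM-HSC ranged from 29.5 to 49.7 CPM (median 34.8) and PLT-HSC had 37.2, 54.2 and 56.7 CPM. MUL-HSC replicate 3 was the high library of its group, as it was in most members.

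On chromosome 9 there were 3 such regions. At chr9:61162979-61164121 (1142 bp) MUL-HSC had 6.37, 3.06, 8.23 and 7.42 CPM, PEM-HSC 13.2 to 25.6 CPM (median 17.1) and PLT-HSC 24.2, 21.9 and 16.7 CPM. At chr9:58862663-58863575 (912 bp) MUL-HSC had 5.79, 3.82, 5.03 and 3.53 CPM, PEM-HSC 9.09 to 16.7 CPM (median 14.6) and PLT-HSC 14.2, 19.8 and 12.7 CPM. At chr9:107874050-107874881 (831 bp) MUL-HSC had 13.9, 13, 21.0 and 9.54 CPM, PEM-HSC 22.0 to 35 CPM (median 30.3) and PLT-HSC 32.0, 43.7 and 32.7 CPM. The last was among the most accessible members, with ratios near the threshold (2.52 for PLT-HSC and 2.01 for PEM-HSC), and MUL-HSC replicate 3 came close to PEM-HSC replicate 3, the lowest of its group at 22.0 CPM.

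In another 4 of the 10 the MUL-HSC libraries were close to empty. The region chr3:100764778-100765709 (931 bp) held 5 counts over the MUL-HSC libraries, 4 of them in replicate 3, and had 3.12 to 9.94 CPM in PEM-HSC (median 5.03) and 9.67, 11.8 and 9.09 CPM in PLT-HSC. The region chr8:4304026-4304637 (611 bp) also held 5 MUL-HSC counts, with 2.89 to 12.5 CPM in PEM-HSC (median 6.96) and 13.6, 14.3 and 5.45 CPM in PLT-HSC. The region chr6:11484749-11485433 (684 bp) held 5 as well, with 1.53 to 11.7 CPM in PEM-HSC (median 5.40) and 7.26, 7.15 and 6.06 CPM in PLT-HSC. The region chr15:81165385-81166025 (640 bp) held 6, with 3.06 to 7.32 CPM in PEM-HSC (median 4.52) and 8.46, 12.2 and 6.67 CPM in PLT-HSC. Their ratios to MUL-HSC, 11 to 20.4 for PLT-HSC and 8.22 to 13.1 for PEM-HSC, rest on these few counts.

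The remaining pair differed in which restricted group was higher. At chr10:51853125-51853878 (753 bp) MUL-HSC had 2.31, 6.12, 12.3 and 5.65 CPM, PEM-HSC 13.8 to 27.4 CPM (median 22.3) and PLT-HSC 29.0, 41.6 and 25.8 CPM. At chr1:157230860-157231552 (692 bp) MUL-HSC had 2.31, 1.53, 3.66 and 3.18 CPM, PEM-HSC 8.53 to 15.1 CPM (median 11.1) and PLT-HSC 13.9, 6.31 and 9.09 CPM. The second was the one region of the 10 with a higher mean in PEM-HSC, 11.2 CPM against 9.77 CPM in PLT-HSC, a difference within the spread of both groups (log2 fold change of PLT-HSC over PEM-HSC -0.20 ± 0.25, adjusted p = 1.0, edgeR).

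**Figure D3:**
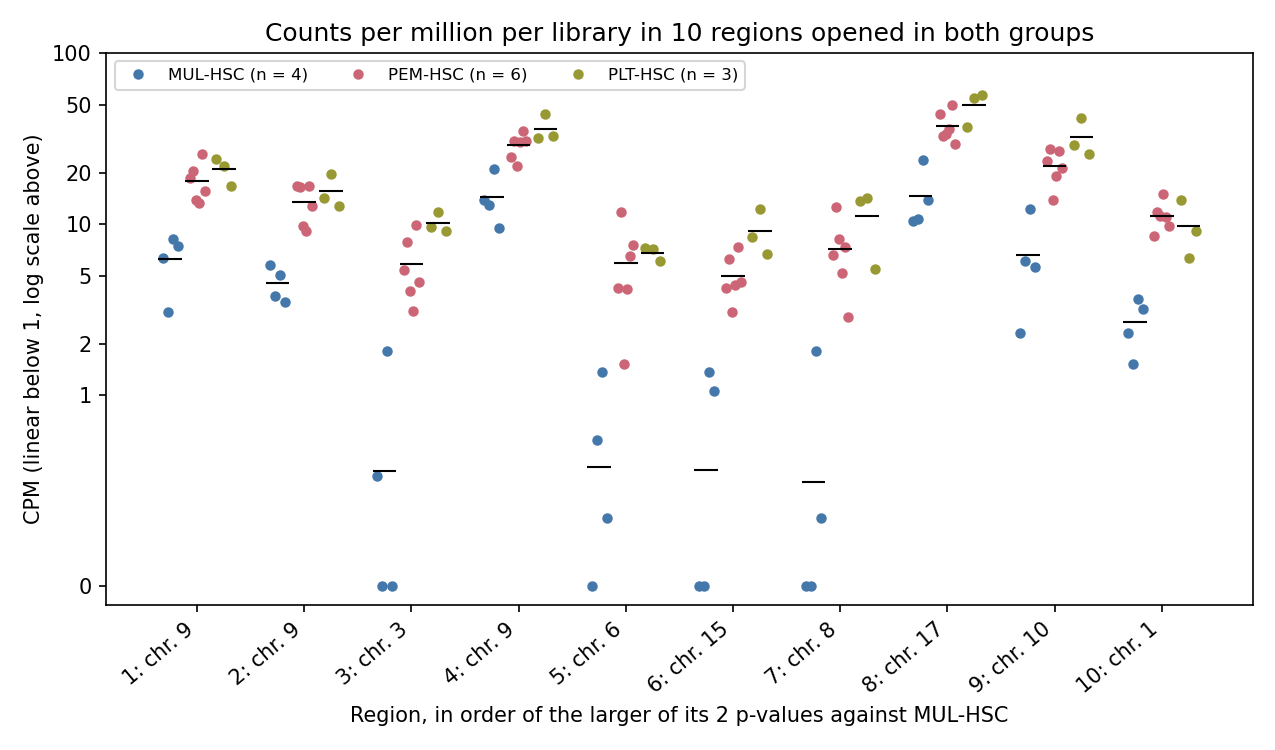
CPM per library (y axis, linear below 1 and logarithmic above) in the 10 regions described, ordered from left to right by the larger of their p-values against MUL-HSC; points are libraries and lines group means. MUL-HSC points lie under all PEM-HSC and PLT-HSC points in each region, which the way of picking these regions favours, and those of regions 3, 5, 6 and 7 are at or near 0.

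Some members rested largely on 1 library. Those with the lowest MUL-HSC counts, at most 3 over the group, were singled out after their values were seen. At chr2:100419410-100420167 the counts in MUL-HSC replicates 1 to 4 were 1, 1, 0 and 0, in PEM-HSC replicates 1 to 6 they were 14, 11, 18, 0, 44 and 16, and in PLT-HSC replicates 1 to 3 they were 178, 9 and 26. At chr2:100573745-100574492, which lies 153578 bp away, they were 1, 1, 1 and 0 in MUL-HSC, 15, 12, 18, 0, 41 and 15 in PEM-HSC and 185, 10 and 26 in PLT-HSC. The counts of this pair were close to each other in every library, PEM-HSC replicate 4 had none in either, and PLT-HSC replicate 1 held most of the PLT-HSC counts of both. The pair had no other eligible region within 100 kb. Over pooled counts the ratio of PLT-HSC to MUL-HSC was 95.5 (95% counting interval 26.1 to 793) in the first and 66.0 (22.3 to 323) in the second. Without PLT-HSC replicate 1 the ratios were 24.8 (6.38 to 213) and 17.0 (5.38 to 86.4). Whether reads of one region could also be placed on the other was not tested, so the pair may not be independent measurements. At chr6:48572326-48572663, PLT-HSC replicate 3 held all 139 PLT-HSC counts, the PEM-HSC libraries held 2, 0, 7, 0, 6 and 0 and the MUL-HSC libraries 0, 0, 3 and 0. This was the one member that failed the filter on low counts, and without PLT-HSC replicate 3 it had no count in PLT-HSC at all. One library held over 60% of the summed PLT-HSC CPM in 42 members (5.94%, against 1.10% of eligible regions), and 1 library held over 40% of the summed PEM-HSC CPM in 21 (2.97%, against 0.476%).

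The 5 members of highest mean CPM were 2 of the 10 above, chr17:50207603-50208387 and chr9:107874050-107874881, and chr10:86930321-86932502, chr11:101082267-101083287 and chr12:31057494-31058601. The chromosome 10 region, at 2181 bp also the widest member, was the least even. PEM-HSC replicate 2 had 135 CPM there and the other PEM-HSC libraries 18.0 to 59.7 CPM, PLT-HSC had 33.9, 47.9 and 6.97 CPM and MUL-HSC 1.16, 10.7, 21.5 and 13.4 CPM. PLT-HSC replicate 3 lay below 3 of the MUL-HSC libraries, and the groups overlapped. The chromosome 12 region kept its groups apart: MUL-HSC had 16.2, 10.7, 16.5 and 12.7 CPM, PEM-HSC 21.2 to 35.6 CPM (median 30.8) and PLT-HSC 23.0, 34.1 and 31.5 CPM. The chromosome 11 region had a mean of 13.8 ± 7.83 CPM (SD, n = 4) for MUL-HSC, 28.0 ± 5.19 (SD, n = 6) for PEM-HSC and 32.4 ± 10.8 (SD, n = 3) for PLT-HSC, and MUL-HSC replicate 3, at 25.1 CPM, overlapped both.

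Members were narrower than eligible regions as a whole, but at low counts they were wider than eligible regions of like counts. Width, which the choice did not use directly, had a median of 656 bp (quartiles 532 and 803) against 755 bp (536 and 1048). Only 58 members (8.20%) were wider than 1000 bp, against 28.2% of eligible regions. At a mean of 10 to under 15 counts the median width was 589 bp in 359 members and 523 bp in 12059 eligible regions, and at 15 to under 20 counts it was 677 bp in 155 and 602 bp in 7211. At 20 to under 50 counts the order turned, with 735.5 bp in 180 members and 775 bp in 15965 eligible regions, and at 50 counts or more it was 840 bp in 13 and 1178 bp in 13305. Width rose with count in both sets, so the median over all members also carries their low counts. After the chromosome 10 region, the widest members were chr13:108389775-108391454 (1679 bp), chr10:106708639-106710130 (1491 bp), chr17:11927335-11928795 (1460 bp) and chr12:117815201-117816648 (1447 bp). Of these the chromosome 13 region kept its groups apart, with 5.35 to 10.6 CPM in MUL-HSC, 17.9 to 34.0 CPM in PEM-HSC and 17.3 to 39.1 CPM in PLT-HSC.

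**Figure D4:**
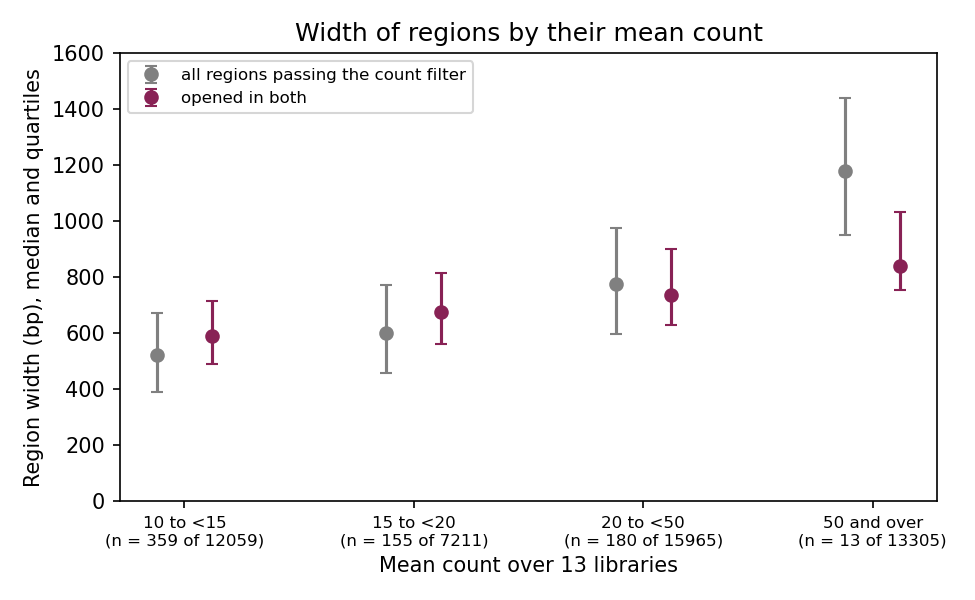
Region width in bp (y axis; points are medians, bars run from the lower to the upper quartile) by mean count over the 13 libraries (x axis) for all eligible regions in grey and the 707 members in dark red, which are also contained in the grey sets. Members are the wider set under 20 counts (589 against 523 bp in the first class) and the narrower set above (840 against 1178 bp in the last).

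Members occurred on all 19 autosomes. Their share of the eligible regions ran from 0.995% on chromosome 11 (38 of 3818) and 1.02% on chromosome 16 (17 of 1673) to 2.01% on chromosome 3 (49 of 2432), 2.06% on chromosome 14 (40 of 1940) and 2.28% on chromosome 18 (34 of 1488). Members sat in sparser surroundings: the number of other eligible regions within 100 kb had a median of 6, against 9 for all eligible regions, and 81 members (11.5%) had none, against 2.68%. The nearest other eligible region lay at a median of 10153 bp, against 6150 bp. These comparisons were not matched for count, and 50.8% of members had means of 10 to under 15 counts, against 24.8% of eligible regions. The part of low counts in the sparser surroundings was not tested.

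Members also lay near each other more often than other eligible regions lay near a member. Another member was within 10 kb of 30 members (4.24%), against 1.14% of the 47833 other eligible regions, and within 100 kb of 106 (15%), against 9.60%. Within 1000 kb the shares were 57.0% and 54.4%. The nearest eligible region was itself a member for 59 of the 707 (8.35%), against 1.40% of all eligible regions. For the 648 members whose nearest eligible region was not a member, that neighbour had median ratios of 1.11 for PLT-HSC and 1.08 for PEM-HSC over MUL-HSC, and was above MUL-HSC in both groups in 355 (54.8%). The same values for the nearest neighbours of other eligible regions were 1.01, 1.01 and 40.3%. Neighbouring regions share libraries and counts, so these shares are a description and carry no test. Most members, 601, had no other member within 100 kb along the chromosome, 45 pairs did, and 5 clusters held 3 or 4.

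On chromosome 1, between 15276289 and 15789704, 6 members followed each other over 513 kb with no other eligible region among them, the largest number of consecutive members on the autosomes. The MUL-HSC libraries together held 13 to 40 counts in each of the 6, which met the count filter mostly through the restricted libraries. A region equally weak in MUL-HSC but not higher in the restricted groups could fail the filter. The choice of regions thus favours unbroken series. Series of 4 and of 3 members also occurred, once and 4 times, and those on chromosomes 2 (3 members) and 7 (4 members) spanned more, 3268 and 3136 kb. The first of the 6, chr1:15276289-15277667 (1378 bp), had 0.00, 2.29, 6.40 and 3.53 CPM in MUL-HSC, 6.64 to 22.7 CPM in PEM-HSC (median 17.2) and 22.1, 29.4 and 17.6 CPM in PLT-HSC, without overlap. The next, chr1:15369833-15370521, had a mean of 1.97 CPM in MUL-HSC, of 6.37 in PEM-HSC and of 6.48 in PLT-HSC. The following 3 form a cluster with gaps under 100 kb: chr1:15567743-15568330 (1.97, 9.30 and 7.28 CPM in the same order), chr1:15614496-15615213 (2.29, 4.99 and 6.12) and chr1:15668935-15669490 (4.41, 12.4 and 19.9). The last, chr1:15789088-15789704, had 1.39, 4.04 and 6.47 CPM. The ratios in the series ran from 2.68 to 7.53 for PLT-HSC and 2.18 to 5.08 for PEM-HSC. The eligible regions on either side, 361 kb before and 5.66 kb after, had ratios of 0.945 and 0.919 for PLT-HSC and 0.925 and 0.972 for PEM-HSC. The region after was far more accessible than the 6, with group means of 50.9 (MUL-HSC), 49.4 (PEM-HSC) and 46.8 CPM (PLT-HSC).

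The cluster on chromosome 3 held 4 members in 46.7 kb, chr3:36348136-36348769 (ratios 4.81 for PLT-HSC and 3.58 for PEM-HSC), chr3:36372226-36372559 (2.88 and 2.34), chr3:36393436-36393909 (2.40 and 2.73) and chr3:36393984-36394791 (2.24 and 2.46). The last 2 are 75 bp apart, the shortest distance between any members. An eligible region between the first and second had ratios of 0.773 and 0.921, so the cluster was not uniformly higher. With 200 kb on either side, 5 of the 10 eligible regions that were not members were above MUL-HSC in both groups.

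On chromosome 9, 3 members spanned 169 kb: chr9:58694738-58695610 with 3.39, 6.82 and 9.24 CPM in MUL-HSC, PEM-HSC and PLT-HSC, chr9:58789541-58790288 with 5.42, 13 and 17.8 CPM, and chr9:58862663-58863575, one of the 10 above. In the middle one PLT-HSC had 23.9, 13.9 and 15.8 CPM, MUL-HSC at most 7.65 CPM and PEM-HSC 6.13 to 17.5 CPM, where only PEM-HSC replicate 3 fell within the MUL-HSC range. The single other eligible region inside the span had ratios of 1.04 and 0.910.

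On chromosome 16, 3 members lay in 40.7 kb with no other eligible region among them or within 200 kb on either side. With at most 23 counts over the MUL-HSC libraries, they too met the count filter mostly through the restricted libraries, which favours such a pattern. In chr16:41889520-41890059 the MUL-HSC libraries held 4 counts in all and the ratios were 20.6 for PLT-HSC and 19.0 for PEM-HSC, where PEM-HSC replicate 2 had 19.6 CPM and the others 3.57 to 8.92 CPM. In chr16:41914285-41914919 MUL-HSC had 2.31, 1.53, 3.66 and 3.18 CPM, PEM-HSC 3.92 to 10.2 CPM (median 8.01) and PLT-HSC 11.5, 13.9 and 15.1 CPM, in order of group without overlap. In chr16:41929144-41930227 the means were 1.36, 5.33 and 5.09 CPM. PEM-HSC replicate 2 was the highest PEM-HSC library in the outer members of this cluster and the lowest in the middle one.

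On chromosome 11, 3 members in 53.4 kb lay among 6 other eligible regions. They were chr11:116962479-116963338 (ratios 3.98 for PLT-HSC and 2.40 for PEM-HSC), chr11:117013958-117014575 (7.09 and 4.37) and chr11:117015367-117015864 (2.13 and 2.02). The other 6 had ratios of 0.564 to 1.38 for PLT-HSC and 0.582 to 1.14 for PEM-HSC, and with 200 kb on either side 18 of the 44 non-members were above MUL-HSC in both groups. Here members stood among neighbours near a ratio of 1.

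**Figure D5:**
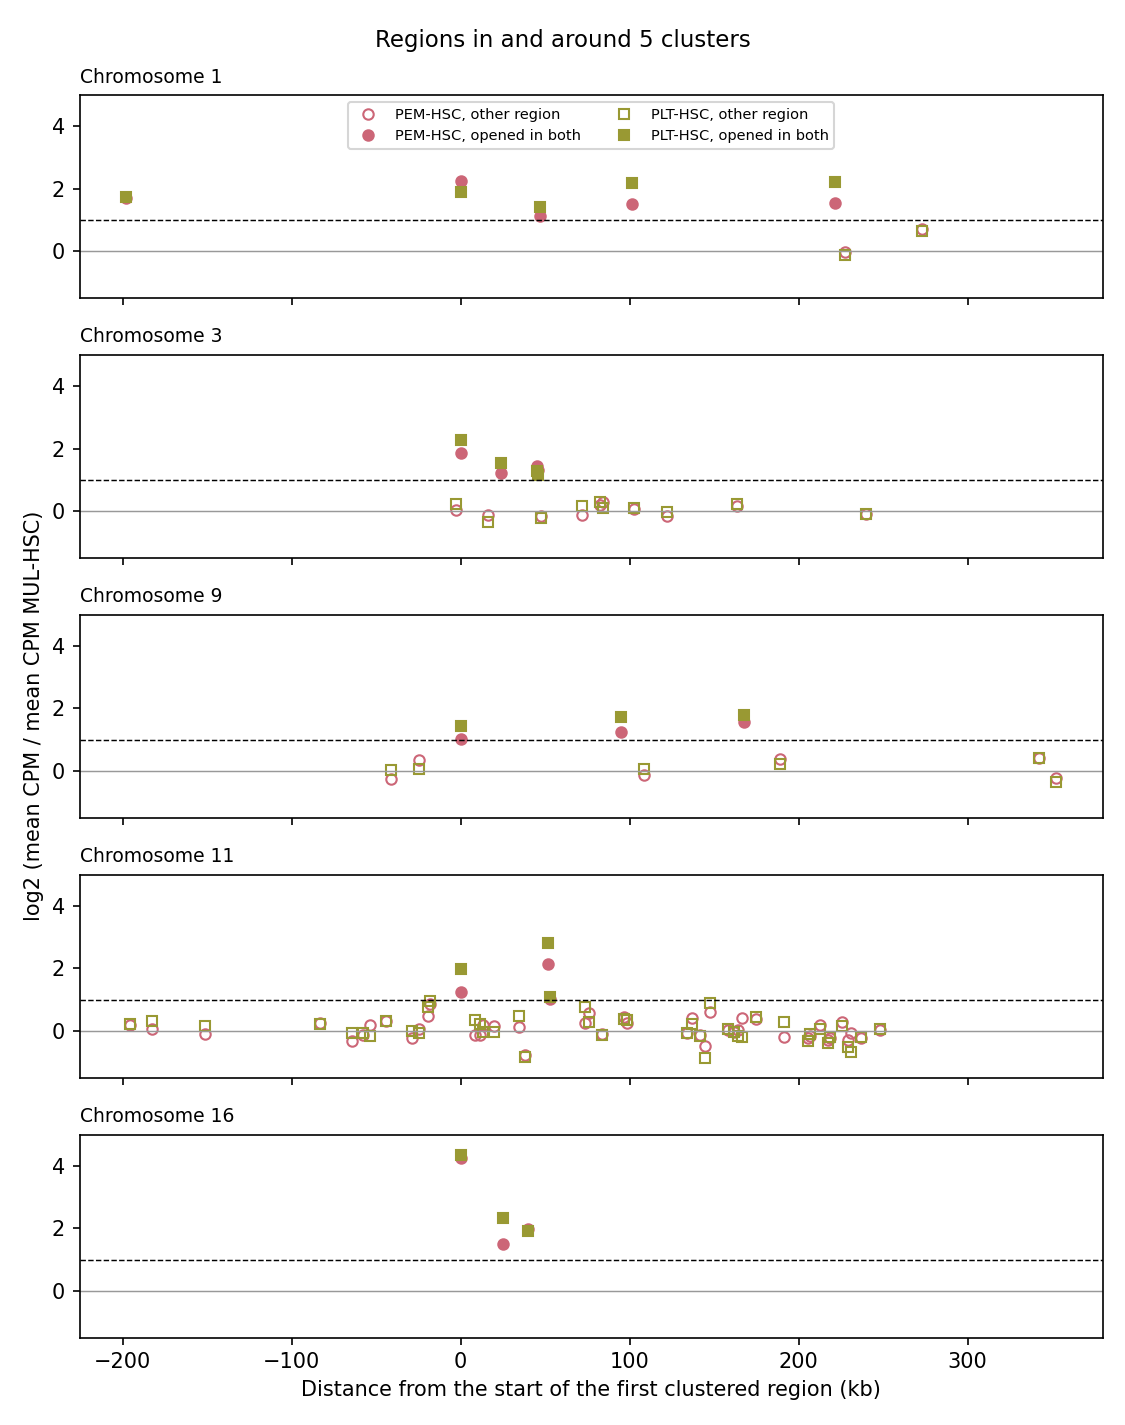
Log2 ratio of mean CPM to MUL-HSC (y axis) for each eligible region in and around the 5 clusters of 3 or more members, by distance in kb from the start of the first clustered member (x axis), with circles for PEM-HSC and squares for PLT-HSC, filled for members and open for other regions; the dashed line is a ratio of 2. On chromosome 1, 5 of the 7 regions shown are members and on chromosome 16 all 3 are, while on chromosome 11 the 3 members stand among many open symbols near 0. The count filter favours members over other regions equally weak in MUL-HSC.

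Which regions count as opened in both groups depended on single libraries. Without MUL-HSC replicate 3, 1296 regions met the rule and 681 of the 707 were among them. Leaving out any other library gave 530 to 968 regions. Without MUL-HSC replicate 1 or 2, 518 and 509 of the 707 were kept, and without the libraries under 2000000 counts 333 (47.1%) were. With all libraries thinned to the smallest total, both ratios still reached 2 in 573 of the 707 (81.0%), but only 187 kept a mean of 10 counts. Scaling by TMM or by DESeq2 size factors kept 706 and 705.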

How the data were processed

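Omni-ATAC-seq libraries of sorted HSCs were made with a Nextera DNA kit, per the labels' protocols. The deposited table holds raw counts per accessible region. The submitters' processing notes name Bowtie2, Picard, MACS2, SAMtools, FastQC and Trim Galore, and the build mm9. How peaks were pooled, duplicates handled, reads shifted and counted, and the tools' versions, were not given in the sources used here. Positions are as in the table; the base from which its starts are counted is not stated. The gene and sequence tables at hand are of GRCm38, another build, so no gene is assigned to a region and no sequence or motif is given.

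From the counts, CPM was computed on column totals and the rule applied in Python 3.11.15. In R 4.3.3, edgeR 4.0.16 fitted 1 quasi-likelihood model to all 13 libraries (filterByExpr by group, TMM, robust, two-sided), with Benjamini-Hochberg adjustment over 59408 regions and calls at 0.05; standard errors are the fold change over the root of F. The fitting code was tested on simulated data. DESeq2 1.42.0, other scalings and filters, thinning, the replicate number as a block and leaving out libraries were alternatives. Totals of 1276962 to 3851165 counts limit precision in weak regions; intervals are exact, at 95%, and cover counting error only. Distances run between region ends. Across groups, replicates of the same number are not known to share more than that number.

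The members and lists were chosen with earlier results of these data known. Named were the 10 members with the smallest larger p against MUL-HSC, the 5 widest, the 5 of highest mean CPM, 3 on each side of the threshold, those in clusters of 3 or more within 100 kb, and the 3 of smallest p each way between PLT-HSC and PEM-HSC; members with 0 MUL-HSC counts were to be named, and there were 0. The members with at most 3 MUL-HSC counts and the series on chromosome 1 were added after their values were seen.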

Additional observations from a re-analysis of the deposited data

Results flagged for a closer look

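In 92 groups of 4 or 6 libraries whose values are given, 6 held a library set apart from the rest by a gap large for the group's range; chance alone marks about 1 group in 20. PEM-HSC replicate 2 was that library in 4: at chr10:86930321-86932502 it had 135 CPM against 18.0 to 59.7, at chr16:41889520-41890059 19.6 CPM against 3.57 to 8.92, at chr16:41929144-41930227 10.2 CPM against 3.47 to 5.11, and at chr5:91129095-91129689 6.26 CPM against 1.55 to 2.89. It had the smallest total of all libraries, 1276962 counts, so 1 count there is worth the most CPM. In raw counts it was the highest PEM-HSC library at the chromosome 10 region, with 173 against 33 to 117. At the others PEM-HSC replicate 5 held more counts than it, 31 against 25, 17 against 13 and 11 against 8. The part of the small total was not tested. PEM-HSC replicate 5 had 34.0 CPM against 17.9 to 23.5 at chr13:108389775-108391454. MUL-HSC replicate 3 had 10.97 CPM against 1.74 to 3.06 at chr15:55027876-55028487, a region just outside the threshold.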

How the results depend on the processing

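The 707 regions became 5472 with no count filter, 193 at a mean of 20 counts, 2274 at 1.5 times and 182 at 3 times MUL-HSC and 198 after thinning, and 530 to 1296 without each library in turn. Calls above MUL-HSC among members, 278 for PLT-HSC and 88 for PEM-HSC, became 84 and 32 with a filter at a mean of 20 counts (193 members tested), 170 and 68 after thinning (502 tested), 48 and 0 without libraries under 2000000 counts, and 105 to 390 and 8 to 233 without each library. Over all tested regions, in either direction, 577 and 230 of 29891 were called with that filter and 633 and 350 of 40536 after thinning. Without libraries under 2000000 counts 275 and 13 of 68564 were. With the replicate block the calls among members were 154 and 19, and 682 and 108 of 59408 tested regions were called in either direction. The 10 same-numbered pairs had correlations of -0.136 to 0.0992, none over 0.1, and the 44 other pairs across groups -0.160 to 0.215. With so few libraries per group, these values cannot decide whether same-numbered libraries were processed together. The sample labels give only the number. Between PLT-HSC and PEM-HSC the alternatives gave 0 to 1 calls, 0 with the replicate block, and the median log2 difference was 0.15 to 0.45 without each library. The share of members near another was 4.24% at 10 kb and 57.0% at 1000 kb. Of 1500 refitted values of named regions, 106 lost the adjusted p threshold of 0.05 and 43 gained it. The sign changed in 1: chr3:68568965-68569564, just outside the 2-fold threshold, at -0.0467 (log2) for PEM-HSC without libraries under 2000000 counts. Most of these values compare with MUL-HSC, where the choice of regions favours keeping the sign, so nothing is read from its stability. The causes were not tested.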

Other observations

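On chromosome X, left out above, 5 of 1031 regions with a mean of at least 10 counts met the same rule (0.485%), against 1.46% on the autosomes.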
